A study of Mus musculus with 72 samples.

Results

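The intergenic regions described here are the stretches of the mouse genome between annotated genes to which enough liver RNA reads mapped to be followed across the whole series. They were taken from the smaller of the authors' 2 intergenic count tables as the entries with a mean count of at least 20 over the 72 libraries, which gave 250 of 16525 regions. These 250 regions held 70.9% of all intergenic counts in that table. Whole livers of wild-type C57bl6 mice aged 8 to 16 weeks were sequenced in 4 arms: control females, misaligned females, control males and misaligned males. Each arm held 3 mice at each of 6 clock times (00:00, 04:00, 08:00, 12:00, 16:00 and 20:00), 18 livers in all, and mice of every arm were kept under 12 h of light and 12 h of dark and fed a diet with 42% of its calories from fat. The labels name the second treatment circadian misalignment and give no schedule for it, so every comparison below is between livers labelled misaligned and livers labelled control on the same fatty diet. Libraries were made from polyadenylated RNA and read in pairs of 150 bases with strand kept, although the intergenic table has no strand. The labels put each liver in a separate mouse, and p-values measure the spread between the sampled mice.

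Reads between annotated genes can come from transcripts that run past a gene's annotated end, from unannotated exons and promoters, from long non-coding RNAs that one annotation lists and another does not, and from repeated sequence. The liver clock is a transcriptional feedback loop: CLOCK and BMAL1 bind E-boxes in target promoters, PER and CRY proteins repress them, and the D-box factors DBP, TEF and HLF carry the rhythm to output genes such as Nampt, which encodes the rate-limiting enzyme of NAD salvage. Mouse liver also differs between the sexes in its cytochromes P450, sulfotransferases and major urinary proteins (MUPs), many of which lie in clusters of near-identical copies.

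RefSeq (GRCm38.p6) places transcription starts inside many of these regions that the GENCODE vM21 gene set does not have. The 4 promoters below are shown because each lies inside a region whose count was rhythmic in control females and is named in the results that follow. Each runs 5′ to 3′ on the gene's own strand, with the 250 bases before the annotated start in lower case and the 50 bases from the start in capitals. They are the promoters of Urml (chr13:68234682-68234981, minus strand), Gm40376 (chr12:32724478-32724777, plus strand), Gm30842 (chr6:121137237-121137536, plus strand) and Gm39447 (chr9:115518721-115519020, plus strand).
Urml: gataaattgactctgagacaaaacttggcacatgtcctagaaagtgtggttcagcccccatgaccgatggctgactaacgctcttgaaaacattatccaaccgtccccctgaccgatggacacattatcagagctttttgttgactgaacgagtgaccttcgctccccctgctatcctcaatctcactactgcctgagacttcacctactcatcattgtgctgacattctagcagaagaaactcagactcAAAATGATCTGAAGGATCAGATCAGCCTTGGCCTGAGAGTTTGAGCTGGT
Gm40376: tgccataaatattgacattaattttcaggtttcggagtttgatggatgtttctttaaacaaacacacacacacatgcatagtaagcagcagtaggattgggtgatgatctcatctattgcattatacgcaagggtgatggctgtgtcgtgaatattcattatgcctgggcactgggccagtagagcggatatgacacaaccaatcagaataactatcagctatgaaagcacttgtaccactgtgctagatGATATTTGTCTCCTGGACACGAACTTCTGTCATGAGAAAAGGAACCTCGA
Gm30842: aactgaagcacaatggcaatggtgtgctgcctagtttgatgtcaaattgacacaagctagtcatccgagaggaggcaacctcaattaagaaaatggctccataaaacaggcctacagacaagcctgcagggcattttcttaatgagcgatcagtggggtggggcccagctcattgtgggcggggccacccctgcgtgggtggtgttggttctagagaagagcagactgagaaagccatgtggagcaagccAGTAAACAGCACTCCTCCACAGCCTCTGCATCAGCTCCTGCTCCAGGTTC
Gm39447: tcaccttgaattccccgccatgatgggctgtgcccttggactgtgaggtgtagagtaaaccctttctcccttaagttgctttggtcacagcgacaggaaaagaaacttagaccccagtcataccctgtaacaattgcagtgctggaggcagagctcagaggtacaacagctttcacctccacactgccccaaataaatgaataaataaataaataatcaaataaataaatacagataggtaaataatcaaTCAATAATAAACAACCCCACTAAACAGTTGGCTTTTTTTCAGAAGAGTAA

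None of these 4 promoters held the E-box letters CACGTG or the D-box letters TTATGNAA, each searched on both strands. Over all members, RefSeq placed 129 promoters of this length, 46 of them in 22 of the rhythmic regions. The E-box letters stood in 3 of those 46 promoters (6.52%) and in 7.15% of all 32851 RefSeq promoters of the same length. The D-box letters stood in 0 of the 46 and in 3.38% of all promoters. A match is a description of these letters only.

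The authors scaled the intergenic table to nearly equal totals, 38582 to 38611 counts per library, against 11551524 to 12529963 in their table of genes, so a region with a mean of 20 rests on few reads in any one liver. Counts below are normalised: they are divided by the library's TMM factor and set on the mean total of 38593. The factors averaged 1.11 in control females, 1.09 in misaligned females, 0.928 in control males and 0.904 in misaligned males. Levels cannot be compared between the intergenic, gene and splice-junction tables, which were scaled separately. Hepatocyte markers (Alb, Apoa1, Ttr, Serpina1a, Cyp2e1) summed to 67400 to 132000 CPM (counts scaled to a fixed total) of the gene table in every liver, and no gene of the marker lists was at 0 in all livers. In bulk liver, fewer cells of a type and less RNA per cell cannot be told apart.

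Most of these regions are not empty once more than one annotation is read. In GENCODE vM21, 52 of the 250 (20.8%, against 3.2% of all intergenic entries) hold an exon. A further 95 (38% against 24.3%) overlap a RefSeq gene other than their neighbours, and 19 (7.6% against 4.05%) are entered by the RefSeq model of a neighbour. The other 84 (33.6% against 68.4%) hold no gene in either annotation. RefSeq long non-coding RNAs lie in 108 members, protein-coding models in 43 and pseudogenes in 52, and a microRNA hairpin lies in 2.

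Genes that GENCODE places inside members were unevenly spread over the genome, as they were inside all intergenic entries. Of the 52 members that hold a GENCODE exon, 51 lie on chromosomes 17 to 19. There were 22 on chromosome 18, 16 on chromosome 17 and 13 on chromosome 19. Of the 529 intergenic entries in all that hold one, 190 lie on chromosome 18, 185 on chromosome 17 and 114 on chromosome 19. The 52 members hold 150 GENCODE genes, 81 of them processed pseudogenes and 42 lincRNAs. Of the 150, 10 have an entry in the authors' gene table, all protein-coding and none lying whole inside its region: Papss2, Zfp871, Dcc, Eif1a, Bicral, Sod2, Ptar1, Smad2, Rab18 and Commd10. Chromosome 17 holds 27 members of its 557 intergenic entries and chromosome 18 holds 27 of 392.

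**Figure D1:**
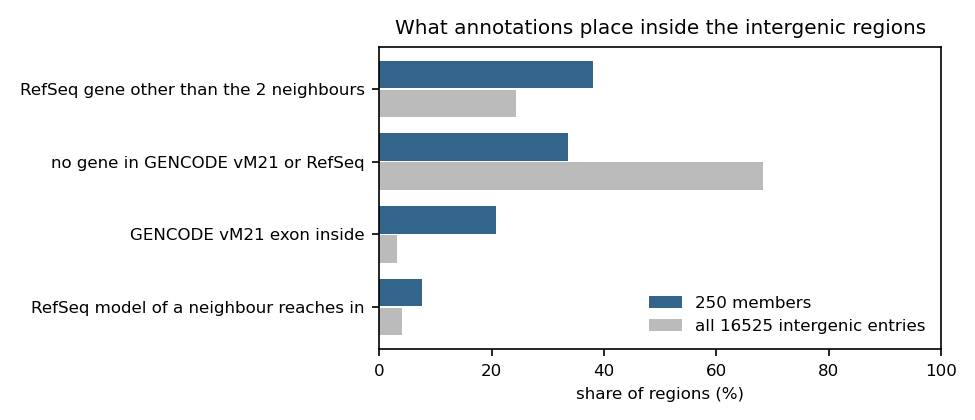
Bars give the share of regions in percent that fall in each class of annotated content, for the 250 members (blue) and all 16525 intergenic entries (grey). Members hold a GENCODE exon in 20.8% and no gene of either annotation in 33.6%, where all entries stand at 3.2% and 68.4%.

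Splicing was seen in most members. At least 1 splice junction lay inside 196 of them (78.4% against 19.3% of all entries), and a single junction with at least 72 reads over the 72 libraries lay in 58 (23.2% against 0.666%). The region of Urml held 20045 junction reads in all. Members ran from 1315 to 1358113 bp with a median of 47201.5 bp, against a median of 32098 bp over all entries, and a longer region has more bases in which to hold reads, genes and junctions. Both ends of 86.0% of members stood exactly 5001 bp from an annotated gene (95.3% of all entries), so reads just past a gene's end fall outside the region.

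Both neighbours faced the region with their 3′ ends in 61 members, 1 neighbour in 141 and none in 48 (24.4%, 56.4% and 19.2%, against 24.2%, 53.1% and 22.6% of all entries). In the 5000 bp strips between a gene's 3′ end and a member, 78 strips averaged at least 5 reads in the authors' stranded flank counts. A median of 99.9% of those reads lay on the strand of the gene, and 62 of the 78 strips were over 90% sense.

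The counts were concentrated in a few regions. The highest was chr2:75638383-75654243, between the pseudogene Gm13655 and the microRNA gene Gm24574 and overlapping RefSeq Gm39859, with a mean of 3770 counts and 9.77% of all intergenic counts. Next came the region between Mup-ps18 and Mup-ps19 (chr4:61888297-61952148, mean 2250), the region of Urml (chr13:68187870-68348363, mean 1960), and the region between Cyp2b9 and Gm8902 (chr7:26215662-26240898, mean 1100). The region between Dhx40 and Ypel2 (chr11:86812747-86931424) averaged 1030. The median member averaged 36.2.

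At the threshold, the members nearest to 20 were chr17:22756510-22779797 (20.0), chrY:37711636-37803836 (20.2) and chrY:42980596-43042509 (20.2). Just under it stood the regions between Tmem167-ps2 and Sult2a4 (19.9), at chr3:69162178-69217418 (19.6) and between Sult1c2-ps2 and Sult1c2 (19.5). The mean reached 20 in all 4 arms in 194 members, in 3 arms in 16, in 2 arms in 39 and in 1 arm in 1. A region carried over the threshold by one sex alone had to differ between the sexes, so the sex comparison below is also given for the 194.

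To ask which members follow the time of day, a 24 h cosine was fitted to each arm with edgeR, and a rhythm was called at a Benjamini-Hochberg adjusted p under 0.05 over the 941 regions with enough counts, all 250 members among them. Amplitudes are log2 differences between the fitted mean and the fitted peak, and peaks are clock hours. Rhythms were called in 44 members in control females (17.6%, against 10.7% of all tested regions), in 24 in control males (9.6% against 6.16%) and in 22 in misaligned females (8.8% against 6.16%). In misaligned males none was called (0 members and 0% of regions by edgeR), with 22 members at an unadjusted p under 0.05, a smallest adjusted p of 0.383 and 0 members by DESeq2 and by limma-voom. Of the 44 members of control females, 13 were also called in control males (29.5% of the female and 54.2% of the male calls), 18 were also called in misaligned females, and 9 were called in all 3. By content, the calls in control females fell on 4 members with a GENCODE exon (7.69% of that class), 25 with another RefSeq gene (26.3%), 4 entered by a neighbour's model (21.1%) and 11 without a gene (13.1%). The shares by class over all tested regions were not computed.

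**Figure D2:**
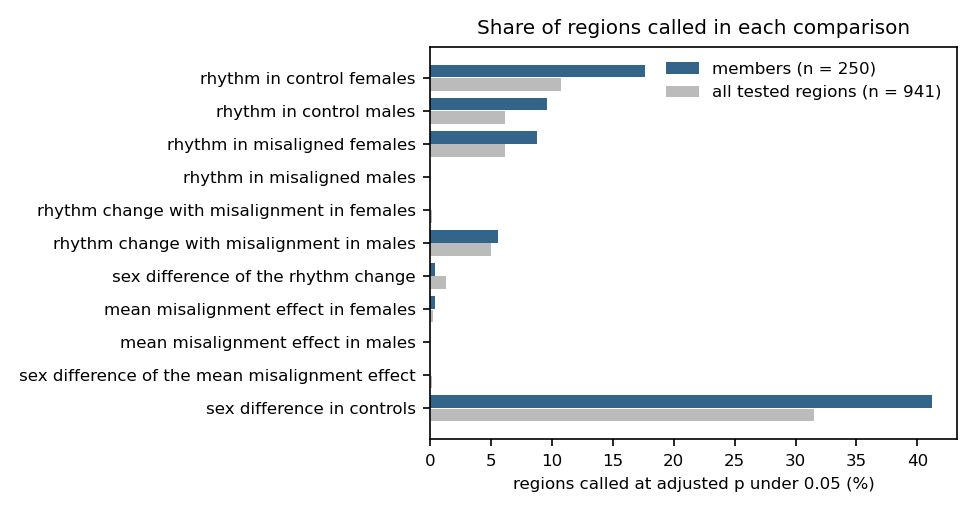
Bars give the percent of regions called at an adjusted p under 0.05 in each comparison, for the 250 members (blue) and all 941 tested regions (grey). For rhythm in control females the shares were 17.6% of members and 10.7% of all regions, and no region was called for rhythm in misaligned males.

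Peaks in control females were spread unevenly over the day. Of the 44, 14 peaked between 20:00 and 24:00 and 11 between 08:00 and 12:00, with 4 to 6 in each of the other 4 h bins. In control males, 7 of 24 peaked between 08:00 and 12:00 and 7 between 16:00 and 20:00. In misaligned females, 6 of 22 peaked in each of those 2 bins and none between 12:00 and 16:00.

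The widest swing among the members with the smallest p lay upstream of Nampt, at chr12:32717533-32814544 between Gm18726 and Nampt, where RefSeq places Gm40376, whose promoter is printed above. In control females at 12:00 the livers held 347, 226 and 213 counts, and at 04:00 they held 5, 16.5 and 18. Control males held 197, 369 and 487 at 12:00 and 82.1, 6.29 and 35.1 at 04:00. All 3 control livers at midday were above all 3 at 04:00 in both sexes. These clock times come from the high and low parts of the cycle, so this is a description and not a further test.

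The fitted amplitude there was 2.13 ± 0.33 (SE) in control females, peaking at 14.0 h (adjusted p = 8.32e-05, edgeR) and 1.68 ± 0.32 at 14.7 h in control males (adjusted p = 0.00417). In misaligned females it was 2.04 ± 0.33 at 11.6 h (adjusted p = 0.000116). Misaligned males held 213, 223 and 110 counts at 00:00 and 26.1, 97.6 and 12 at 16:00, an order opposite to that of control males, who held 39.5, 59.2 and 12.8 and then 470, 49.3 and 131. Their fitted amplitude was 0.76 ± 0.32 and did not pass the test (adjusted p = 0.656). Nampt itself, in the gene table, had smaller amplitudes than the region: 0.78 at 12.8 h in control females, 0.50 at 12.1 h in control males and 0.74 at 10.3 h in misaligned females. Splice-junction reads in the region, 690 in all, followed its count over the 72 libraries (r = 0.89) and peaked at 13.7 h in control females and 14.9 h in control males. In misaligned males they peaked at 0.672 h, and their fitted amplitude of 1.2 was not below the 1.12 of control males.

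The region at chr4:144963849-144967621, at the 3′ side of Vps13d, which encodes a lipid transfer protein of mitochondria and peroxisomes, peaked in the evening. A RefSeq gene other than its neighbours overlaps this region. Control females held 364, 220 and 110 counts at 20:00 and 13.3, 28.4 and 34.3 at 04:00. Control males held 287, 222 and 183 at 20:00 and 25.4, 43.2 and 18.1 at 04:00. In both sexes the livers at 20:00 did not overlap the 04:00 livers, which describes the rhythm and is not a further test. The amplitude was 1.80 ± 0.28 at 19.8 h in control females (adjusted p = 2.85e-05) and 1.91 ± 0.28 at 19.5 h in control males (adjusted p = 4.33e-05), and 1.25 ± 0.27 at 18.3 h in misaligned females (adjusted p = 0.00599). Vps13d in the gene table had amplitudes of 0.03 in control females and 0.01 in control males, neither of which passed the test.

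The region of Urml, between AA414992 and the lincRNA Gm8016, combined a high level with a rhythm. Control females held 1850, 2260 and 2150 counts at 00:00 and 894, 966 and 912 at 08:00, and control males held 2970, 4050 and 3450 at 20:00 and 1580, 1300 and 1860 at 08:00. The female livers at 00:00 and the male livers at 20:00 stood above those of their sex at 08:00, without overlap. These clock times come from the high and low parts of the cycle, so this describes the rhythm and is not a further test. Amplitudes were 0.57 ± 0.12 at 20.9 h (adjusted p = 0.00206), 0.49 ± 0.12 at 19 h (adjusted p = 0.0177) and 0.60 ± 0.12 at 18 h (adjusted p = 0.00129) in control females, control males and misaligned females. Junction reads in the region followed its count (r = 0.91, 72 libraries) and peaked at 21.4, 19.7 and 18.9 h in the same arms.

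**Figure D3:**
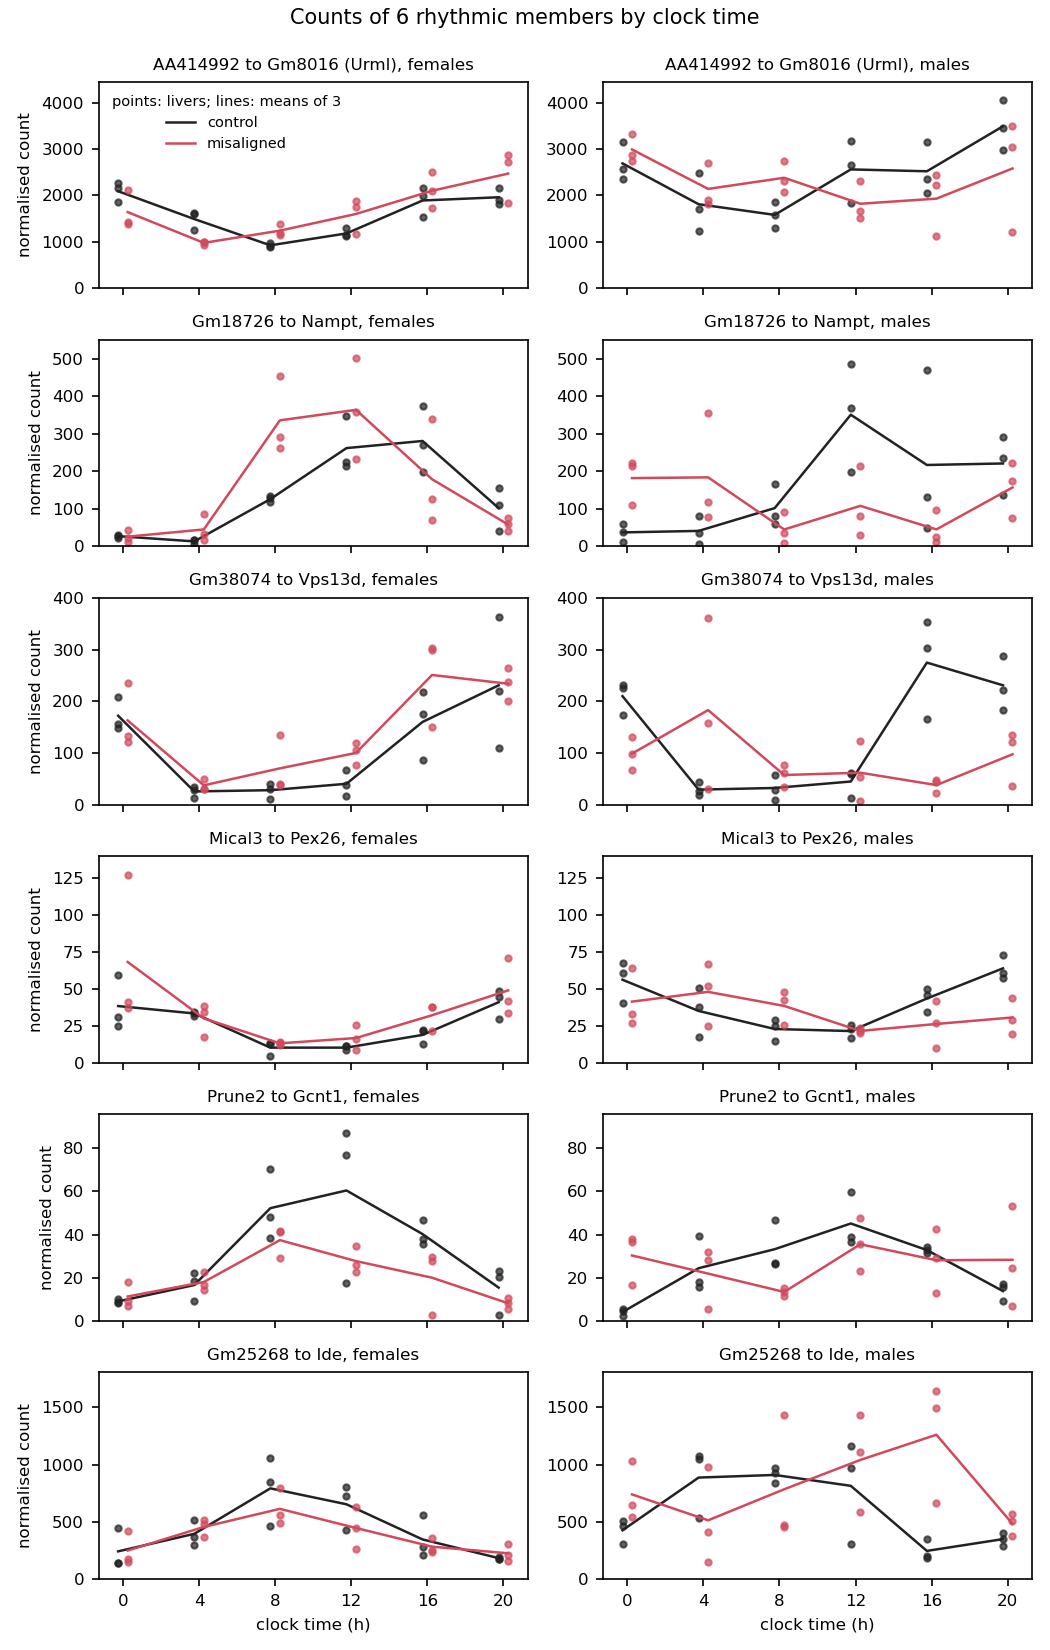
Points are the normalised counts of single livers against clock time in hours, with lines through the means of 3, for 6 rhythmic members in females (left) and males (right), controls in black and misaligned mice in red. Between Gm18726 and Nampt, control livers at 12:00 lie between 197 and 487, and at 04:00 between 5 and 82.1.

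The 2 members that follow peaked at nearly opposite times of day. Between Mical3 and Pex26, which encodes a peroxisome assembly protein (chr6:121136000-121178666, with RefSeq Gm30842), control females ranged from 4.56 to 59.3 counts around a median of 23.7 and had an amplitude of 1.13 ± 0.18 at 23.0 h (adjusted p = 2.81e-05). Its misaligned females had the same fitted size, 1.13 ± 0.17 at 22.0 h (adjusted p = 1.75e-05), and control males 0.83 ± 0.17 at 21.4 h. Between Prune2 and Gcnt1 (chr19:17228933-17321140), with GENCODE transcripts inside, counts ran from 2.77 to 87.0 (median 22.7) in control females and peaked at 11.6 h with an amplitude of 1.41 ± 0.23 (adjusted p = 4.25e-05). Control males peaked there at 11.2 h.

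The region of Gm39447 (chr9:115443582-115621599) ranged from 3.72 to 273 counts in control females, with a median of 69.9. Its amplitudes were 2.03 ± 0.38 at 0.569 h in control females (adjusted p = 0.00138) and 1.46 ± 0.41 at 24 h in control males (adjusted p = 0.0419). Its 1275 junction reads followed the count less closely (r = 0.75) and peaked at 2.77 h in control females and, with an amplitude of 0.83, at 6.56 h in control males. Between Mlycd, which encodes malonyl-CoA decarboxylase, and Osgin1 (chr8:119416103-119429123), the amplitudes were 1.75 ± 0.40 at 2.06 h and 1.52 ± 0.39 at 22.2 h in the same arms. Osgin1 in the gene table was called in control males, with an amplitude of 0.62 at 19.6 h, and not in control females. Members beside Gsr (glutathione reductase), Gpt2 (an alanine aminotransferase) and Acnat2 (a peroxisomal acyltransferase) were called in both control arms, with amplitudes of 0.55 to 0.75.

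For other members the 2 control arms gave unequal fits. Downstream of Gclc, the catalytic subunit of the first enzyme of glutathione synthesis (chr9:77799486-77802035), control females ranged from 3.61 to 123 counts (median 33.2), with an amplitude of 1.48 ± 0.28 at 0.887 h (adjusted p = 0.000286). Its other neighbour, Gm34654, also faces it with the 3′ end and had an amplitude of 2.04 at 0.714 h in the gene table in control females (adjusted p = 4.24e-05), whereas Gclc had 0.41 at 22.3 h. Control males ranged from 31.7 to 153 (median 57.0), with 0.72 ± 0.26 at 20.7 h (adjusted p = 0.225). Near Nat8f2 (chr6:85849460-85860421) control males had 0.82 ± 0.15 at 7.69 h (adjusted p = 0.000476) and control females 0.50 ± 0.15 at 8.67 h (adjusted p = 0.0384). Next to Slc30a1, a zinc exporter gene (chr1:191918248-191972369), control males had 0.63 ± 0.12 at 19.7 h (adjusted p = 0.00134) and control females 0.37 ± 0.11 at 23.1 h (adjusted p = 0.0672). The difference in rhythm between control females and control males was not tested.

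In misaligned females the region between Akr1c19 and Akr1c12, genes of aldo-keto reductases (chr13:4257844-4263175), stood out by its p. It ranged from 13.1 to 81.8 counts (median 34.9) in misaligned females and from 15.8 to 62.3 (median 26.6) in control females, so that the arms overlapped. Its amplitude was 0.89 ± 0.15 at 8.32 h (adjusted p = 3.26e-05) against 0.57 ± 0.15 at 10.5 h (adjusted p = 0.012). The change between these 2 fits did not pass the test (adjusted p = 0.752). The calls above depend on how the day is modelled and on single livers: with the clock times as groups, 19, 12 and 10 members were called in control females, control males and misaligned females. Shares of all tested regions are not given for this alternative, so these counts cannot be set against them. Without the control male liver at 20:00 replicate 2 the calls in control males fell to 10, and without that at 08:00 replicate 2 to 11.

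Rhythm in a region was set against its neighbouring genes in the authors' gene table. Of 226 neighbours with enough counts, 34 were called rhythmic in control females (15%, against 11.4% of 15066 genes), 25 in control males (11.1% against 10%) and 21 in misaligned females (9.29% against 7.23%). Of the 36 members rhythmic in control females that had such a neighbour, 11 had a rhythmic one. In control males the count was 5 of 19, and in misaligned females 3 of 16. A member may have such a neighbour on either side, so the shares of genes above are no background for these counts. The share over all members with a tested neighbour was not computed, so no link or lack of one is read from them.

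In 113 members a neighbouring gene that faced the region with its 3′ end also had enough counts. There the count of the region was tested relative to that gene, by limma on the log2 difference. The relative rhythm passed in 16 members in control females (against 7.73% of 401 such regions) and in 10 in control males (against 5.24%). Among the 26 of these members with a rhythm of their own in control females it passed in 13, and among the 13 of control males in 7. The region at Vps13d passed in both (adjusted p = 8.88e-05 and 6.78e-06). The correlation of region and facing gene over the 72 libraries, which share depth and processing, had a median of 0.23, ran from -0.54 (Hsf2bp, beside the region between Sik1 and Hsf2bp) to 0.99 (Cyp2b9 and Sult2a3), was above 0.5 in 32 members and was below 0 in 32. Both sexes and all arms were pooled in it, so a sex difference common to region and gene raises it. In the 26 members with at least 500 junction reads, the correlation of those reads with the region's count had a median of 0.68 and ran from -0.07 to 0.98. A read across a junction may be counted in the region as well.

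Misaligned males were compared with control males for a change of amplitude or peak. The change passed in 14 members (5.6%, against 4.99% of all tested regions), 10 of which were rhythmic in control males. In females it passed in 0 members by edgeR (0.106% of all regions), with 17 at an unadjusted p under 0.05, a smallest adjusted p of 0.212, and 0 by DESeq2 and limma-voom. The difference between the sexes in that change passed in 1 member (1.28% of all regions), between Gm7358 and 4930488N24Rik (adjusted p = 0.0262). The share of members changed in males was thus close to that of all regions.

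Of the 14, 13 had a lower fitted amplitude in misaligned than in control males, and the peak was later in 12. Over all 14 the median shift was 6.94 h later, with a range of -10.9 to 11.8 h. Shifts are taken within 12 h either way, so those near 12 h have no firm direction. In females the same 14 had a median amplitude ratio of 0.826 and a peak 2.11 h earlier. The smallest p was at Vps13d (adjusted p = 0.00124, edgeR), where misaligned males held 43, 48.1 and 22 counts at 16:00 and control males 166, 354 and 304, without overlap. At 04:00 the order was turned, with 158, 30.2 and 362 in misaligned and 25.4, 43.2 and 18.1 in control males, which overlapped. The same values gave the call, so they describe the change and are not a further test. The region upstream of Nampt followed (adjusted p = 0.00474), and Nampt itself changed as well (adjusted p = 0.000118 over the gene table).

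Between Fer, which encodes a tyrosine kinase, and Pja2 (chr17:64144495-64276004), control males peaked at 4.59 h with an amplitude of 0.52 ± 0.14 and misaligned males at 14.6 h with 0.38 ± 0.14 (adjusted p of the change = 0.0126). Control males ranged from 9.60 to 32.8 counts (median 17.6) and misaligned males from 7.75 to 30.8 (median 19.7), so the levels overlapped throughout. Near Nat8f2 the amplitude was 0.82 ± 0.15 in control and 0.13 ± 0.15 in misaligned males (adjusted p of the change = 0.0177). Without the control male liver at 08:00 replicate 2 that call was lost (adjusted p = 0.0642).

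Upstream of the snRNA gene Gm25268 and downstream of Ide, which encodes the insulin-degrading enzyme, lies chr19:37238485-37263742, the ninth highest member with a mean of 539. This region, too, overlaps a RefSeq gene other than its neighbours. Control males held 1070, 536 and 1050 counts at 04:00 and 354, 184 and 199 at 16:00, whereas misaligned males held 412, 979 and 146 and then 1490, 1640 and 661. At 16:00 all 3 misaligned livers were above all 3 control livers, which describes the change and is not a further test. The amplitude was 0.94 ± 0.20 at 7.05 h in control and 0.51 ± 0.20 at 13.7 h in misaligned males (adjusted p of the change = 0.0255), and the call was lost without any one of 8 livers. Ide in the gene table had amplitudes of 0.30 and 0.09 in these arms, neither called.

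The other members changed in males lay between Prune2 and Gcnt1, Mical3 and Pex26, Slc30a1 and Rd3, Gm38098 and Gm30173, Gm42723 and Slc35g1, Hpcal1 and Gm49326, Dynap and Gm45879, Gm7646 and Ugt2a3, and Gm48528 and Gm5953. Their adjusted p ran from 0.0255 to 0.0477. The region between Hpcal1 and Gm49326 was the exception in amplitude: 0.30 ± 0.15 at 20.2 h in control and 0.46 ± 0.15 at 6.93 h in misaligned males. The region between Gm48528 and Gm5953 lost its call without either of 2 livers, control male at 12:00 replicate 3 or misaligned male at 00:00 replicate 2. Of the 11 changed members with a tested neighbour, 2 had a neighbour that changed, and 26 of the 226 neighbours changed in all (11.5%, against 8.77% of genes). The share over all members with a tested neighbour was not computed here either. The count of 14 rests on single livers: it ran from 6 to 21 as each was left out, and 9 livers moved it by over 1.5 times.

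Peaks were compared over the 55 members rhythmic in either control arm. In females, the fitted peak was earlier in misaligned than in control mice in 49 of 55. Over all 55 the median was 2.40 h earlier (range -6.25 to 10.3 h), with a median amplitude ratio of 0.769. In males the peak was later in 48 of 55, and over all 55 the median was 6.95 h later (range -11.6 to 11.8 h). The male amplitude was lower in 45, with medians of 0.52 in control and 0.28 in misaligned males. No member was called rhythmic in misaligned males, so single peaks there are poorly placed: the SE of the fitted peak had a median of 2.39 h over the 55 and ran from 1.05 to 20.5 h, against a median of 1.17 h in control males. Among the 18 members called in both control and misaligned females, the peak was earlier in 17. Over all 18 the median was 2.40 h earlier, and the median amplitude ratio was 1.01. Among the 13 called in both control arms, the male peak was earlier in 11, with a median over all 13 of 0.98 h earlier. These members were chosen by their control fits, so a lower amplitude in the other arm is not independent of the choice.

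**Figure D4:**
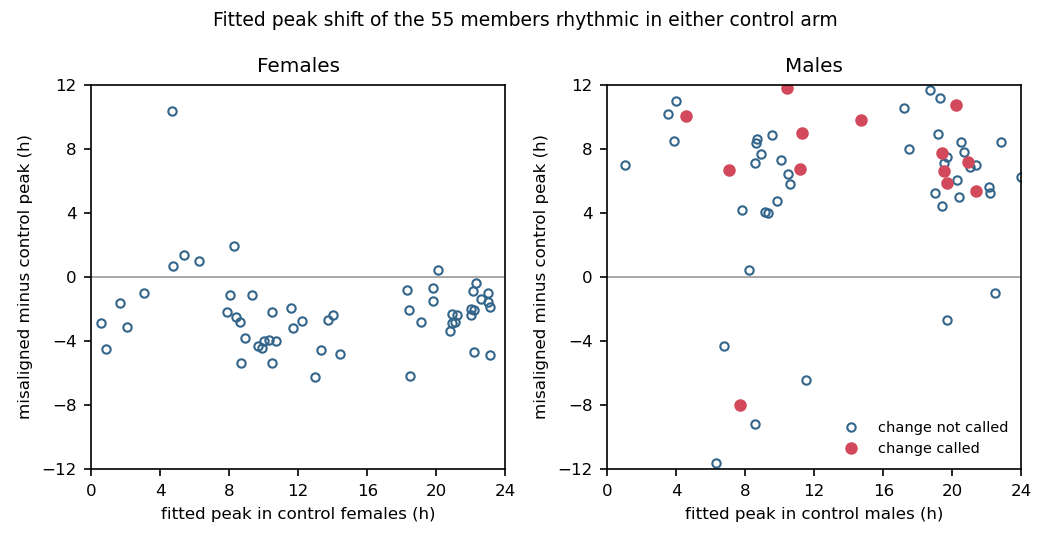
Each point is 1 of the 55 members rhythmic in either control arm, with the fitted control peak in hours on the x axis and the misaligned minus control peak in hours on the y axis, females left and males right. Female points lie mostly just below 0 (49 of 55 earlier), and male points lie mostly well above 0 (48 of 55 later).

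Few members differed between misaligned and control mice in level averaged over the day. In females 1 member passed (0.213% of all tested regions), between Tigd2 and Gprin3 (chr6:59217034-59342225). Control females ranged from 40.4 to 89.0 counts (median 59.0) and misaligned females from 48.5 to 103 (median 78.9), and the arms overlapped. The mean rose from 59.8 ± 12.5 (SD, n = 18) to 80.0 ± 15, a log2 difference of 0.42 ± 0.10 (edgeR, adjusted p = 0.0263). The call was lost in 57 of the 72 fits that each left out 1 library, with RLE size factors (adjusted p = 0.0821) and with library sizes taken from the genes (adjusted p = 0.222). Blood cell markers summed to 52.9 to 553 CPM (median 130) in misaligned and 91 to 840 (median 311) in control females, with 0 of 6 higher in misaligned females. Of the other lists, 0 of 5 Kupffer cell, 3 of 5 hepatocyte and 2 of 5 endothelial markers were higher in misaligned females. So were 4 of 5 stellate cell and 5 of 5 cholangiocyte markers. The part of these cell types in the result was not tested.

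In males 0 members passed by edgeR (0% of regions), with 15 at an unadjusted p under 0.05, a smallest adjusted p of 0.637, and 0 by DESeq2 and limma-voom. The smallest p was in the region of Gm33459 (chr9:74370064-74555581), with 5.78 to 83.5 counts (median 26.5) in control and 3.84 to 154 (median 51.3) in misaligned males. Its log2 difference was 1.04 ± 0.35. The sex difference of the response passed in 0 members by edgeR (0.106% of regions), with 20 at an unadjusted p under 0.05 and 0 by DESeq2 and limma-voom. Its smallest adjusted p among members, 0.261, was between Gm12909 and Gm12910 (chr4:62095525-62107930), in the MUP gene cluster. There the log2 difference was 0.36 ± 0.12 in females and -0.23 ± 0.12 in males. Members beside listed genes of secretion and lipid synthesis did not pass: 0.46 ± 0.13 in females beside Gc, the vitamin D-binding protein gene, and -0.35 ± 0.42 beside Scd1, a fatty acid desaturase gene.

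The sexes differed in more members than did the treatments within a sex. Control females and control males differed in 103 members (41.2%, against 31.5% of all tested regions): 54 were higher in females (21.6% against 15.4%) and 49 in males (19.6% against 16%). By content, 12 of these held a GENCODE exon (23.1% of that class), 42 another RefSeq gene (44.2%), 9 a neighbour's model (47.4%) and 40 no gene (47.6%). For the sex difference, too, the shares by class over all tested regions were not computed. Part of this excess over all regions is set by the threshold: 32 of the 103 lay among the 56 members under 20 in at least 1 arm, and a member carried by one sex alone had to differ. Among the 194 members with a mean of 20 in every arm, 71 differed (36.6%), 29 higher in females and 42 in males. The median size of the called differences was 0.72 on the log2 scale, and 18 members were at least 2-fold higher in females and 13 in males.

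The balance of directions depends on the scaling. With library sizes taken from the genes, 102 members were higher in females and 27 in males (79.1% higher in females, against 52.4% with TMM), with a median over all regions of 0.30 against 0.05. In the authors' larger table the split was 41 and 76 (35% higher in females). Kupffer cell markers summed to 313 to 1700 CPM (median 539) in control females and 192 to 583 (median 385) in control males, with 5 of 5 higher in females. The numbers higher in females in the other lists were 5 of 6 blood cell markers (median sum 311 against 183 CPM), 4 of 5 hepatocyte markers (109000 against 83400), 4 of 5 endothelial markers (232 against 193), 2 of 5 cholangiocyte markers (104 against 178) and 0 of 5 stellate cell markers (359 against 495). Their part in the sex differences was not tested.

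The largest female excess lay in gene clusters of drug metabolism. The first 3 regions below reached a mean of 20 over the libraries through females alone, so that they differ between the sexes was fixed by the threshold, and their values are a description. Between Tmem167-ps3 and Sult2a3, a sulfotransferase gene (chr7:14011836-14062445), control females ranged from 19.4 to 333 counts (median 153) and control males from 0 to 2.32, with 16 of 18 males at 0. The summed counts were 3244 and 3, a ratio of 905 (95% exact interval 309 to 4390, for counting error only). Between Cyp3a41a and Gm43626 (chr5:145725137-145755544) the sums were 1517 and 1, a ratio of 1270 (228 to 50200), and females held 25.1 to 191 counts where 17 of 18 males held 0. No female liver overlapped a male liver in either region.

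Between Gm29920 and Cyp2b26-ps (chr7:26105317-26129752) control females ranged from 132 to 1150 counts (median 437) and males from 0 to 8.10 (median 1.16). The summed counts were 11933 and 38, a ratio of 263 (191 to 372). This region was also rhythmic in control females, with an amplitude of 0.79 ± 0.21 at 10.7 h (adjusted p = 0.0181). Between Cyp2b9 and Gm8902 females ranged from 968 to 3190 and males from 0 to 382, a log2 difference of 3.69 ± 0.50 (adjusted p = 4.77e-08). Cyp2b9, a female-biased cytochrome P450 gene, faces that region and its expression followed the count with r = 0.99 over the 72 libraries of both sexes. The correlation within a sex was not computed, so this r does not tell a shared sex difference from liver-to-liver agreement. Between Sik1 and Hsf2bp (chr17:31860793-31939768), with several RefSeq non-coding genes inside, females ranged from 203 to 574 and males from 51.3 to 198, a difference of 1.67 ± 0.14 (adjusted p = 8.25e-15), and this member was chosen after its values were seen.

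Regions higher in males were led by the MUP cluster. Between Mup-ps18 and Mup-ps19 control males ranged from 1510 to 8390 counts (median 4700) and control females from 17.7 to 69.4 (median 31.4), without overlap. The log2 difference was -7.01 ± 0.29 (female minus male, adjusted p = 3.97e-29). Each of the next 2 regions was under 20 in control females and passed the threshold through males, so its difference is a description. Between Gm16079 and Gm13049 (chr4:150683793-150820732) males held 14.1 to 142 (median 43.4) and females 2.76 to 33.9 (median 13.2), a difference of -1.77 ± 0.24. The region between Gm23092 and Gm19619 (chr5:91223005-91252570) differed by -1.70 ± 0.21 and that between Tmed7 and Cdo1, the cysteine dioxygenase gene (chr18:46615226-46708204), by -1.57 ± 0.41. The highest member of all, with Gm39859, was higher in males too, at 1760 to 9470 counts (median 5660) against 1390 to 3140 (median 2060) in females, with overlap and a difference of -1.27 ± 0.17 (adjusted p = 1.39e-08).

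**Figure D5:**
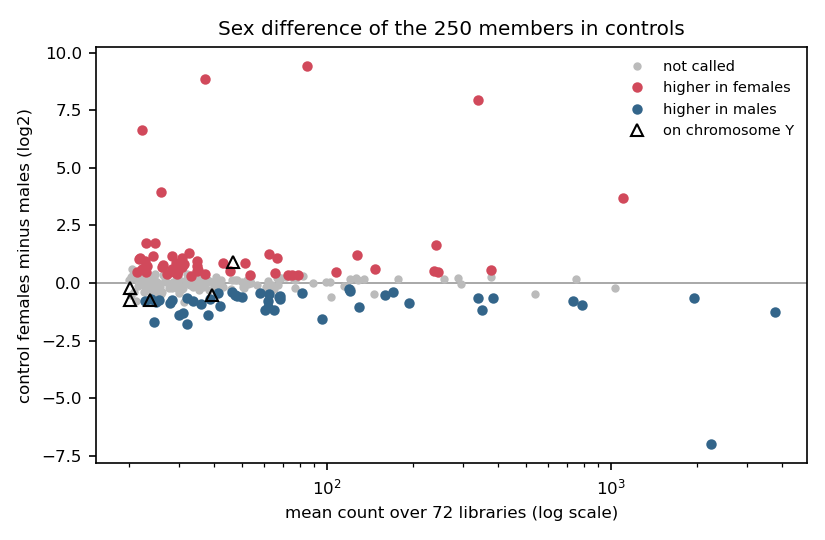
Each point is 1 of the 250 members, with its mean count over 72 libraries on a log x axis and the log2 difference of control females minus control males on the y axis, coloured by whether the difference was called. Of the 103 called members, 54 lie above 0 and 49 below, and the regions in the Sult2a, Cyp2b, Cyp3a and MUP clusters lie farthest from 0.

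Genes of the MUP, Cyp2b, Cyp3a and Sult2a clusters have near-identical copies, and reads could be divided among them in the authors' counting, so the values of these regions are uncertain. From the list of 24 sex-biased liver genes, 4 members lay beside a gene (Cyp2b9, Cyp3a41a, Cyp3a44 and Mup21), of which 3 were called. From the list of 19 clock output genes 1 member lay beside a gene, Nampt, and no member lay beside one of the 19 core clock genes.

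Counts were assigned to chromosome Y in both sexes. The 5 members on chromosome Y had means of 16.1 to 56.3 counts in control females and 22.0 to 48.9 in control males, and 1 was higher in females, 3 in males and 1 was not called. The one higher in females lay between Gm28301 and Mid1-ps1 (chrY:90672626-90748056), at 56.3 ± 17.9 against 29.9 ± 13.9 (SD, n = 18 each, adjusted p = 0.000887). In the gene table, Y genes kept to males: Ddx3y had 0 to 1 counts in females and 117 to 615 in males, and Kdm5d 0 and 98 to 224. Female mice carry no Y chromosome, and the origin of the reads these regions hold in female livers was not tested. Of 11 members on chromosome X, 1 was higher in females, 5 in males and 5 were not called.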

How the data were processed

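Polyadenylated RNA of 72 livers was measured in 4 arms and 6 clock times. The authors deposited whole-number read counts per intergenic region, gene and splice junction, made with STAR 2.6.0c on GRCm38 per the submitters' processing notes. These counts carry the label PORT result, a term the sources used here do not explain. The larger and smaller intergenic tables are named MAX and MIN, terms the labels used here do not define. The authors' totals were nearly equal between libraries, 38582 to 38611 counts in the smaller intergenic table and 98593 to 98697 in the larger, so sequencing depth per liver is not kept. No 2 libraries were identical.

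The members and gene lists were chosen with earlier results of these data known, and so were the tests. Regions passing edgeR's filterByExpr (941) were scaled by TMM and tested with edgeR 4.0.16 (R 4.3.3) by robust quasi-likelihood. One fit had a 24 h cosine per arm (60 residual degrees of freedom) and one the 24 group means (48). Benjamini-Hochberg adjustment ran over all 941 regions, and calls were made at 0.05. Relative rhythms were tested with limma 3.58.1 on log2 CPM with a prior count of 2. The scripts were tested on simulated data. Location was read from GENCODE vM21 (GRCm38) and RefSeq (GRCm38.p6). Sequences of whole regions were not used here.

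Named members were the 10 with the highest mean and, per comparison, up to 6 with the smallest p or, for level differences, up to 4 with the largest change in each direction among those called, or the 3 with the smallest p where none was called, and the 3 regions on either side of the mean count of 20. The members with Gm39447, Mlycd, Gsr, Gpt2 and Acnat2, those on chromosome Y, and others named outside this rule were chosen after their values were seen. Alternatives were RLE size factors, gene-table library sizes, no filter, a minimum mean of 10, limma-voom, DESeq2 1.42.0, the larger table, clock times as groups, a replicate block, and leaving out each replicate number or each library. Intervals on count ratios are exact and cover counting error only.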

Additional observations from a re-analysis of the deposited data

Results flagged for a closer look

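One member differed between the sexes in how its rhythm changed with misalignment: chr17:14064532-14099923, between Gm7358 and 4930488N24Rik, with no gene inside in either annotation (edgeR test of the sex difference, adjusted p = 0.0262). Control females ranged from 27.6 to 95 counts (median 62.9), misaligned females from 32.3 to 94.3 (58.9), control males from 49.5 to 97.8 (71.2) and misaligned males from 37.1 to 97.5 (64.8), so all 4 arms overlapped. The amplitude was 0.49 ± 0.11 (SE) at 23.1 h in control females and 0.54 ± 0.11 at 18.2 h in misaligned females, both called, and 0.19 ± 0.11 at 19.3 h in control males and 0.24 ± 0.11 at 6.44 h in misaligned males, neither called. The change within females (adjusted p = 0.212) and within males (adjusted p = 0.197) did not pass. The call of the sex difference was lost without any one of 21 of the 72 libraries, whose adjusted p ran up to 0.107, without the filter on low counts (adjusted p = 0.247) and in the larger table (adjusted p = 0.115).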

How the results depend on the processing

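Counts of called members moved by over 1.5 times under these alternatives. They are given without the shares of all tested regions, so they do not show whether members exceed all regions under an alternative. For rhythm in control females (44 members), 16 passed without the filter on low counts and 19 with clock times as groups; leaving out each replicate number gave 10 to 35 and each library 31 to 46. For rhythm in control males (24) the values were 10 and 12, with 2 to 16 and 10 to 27. For rhythm in misaligned females (22), 12 passed without the filter, 10 with clock times and 36 by DESeq2, with 7 to 10 and 17 to 28. The rhythm change in males (14) gave 6 without the filter, 9 by limma-voom, 9 in the larger table and 2 with clock times, with 2 to 13 and 6 to 21. The libraries that moved this count by over 1.5 times were control males at 00:00 replicate 1 (9 members without it), 04:00 replicate 3 (9), 08:00 replicate 2 (8) and 16:00 replicate 2 (9), and misaligned males at 00:00 replicate 1 (8), 00:00 replicate 2 (9), 04:00 replicate 3 (9), 08:00 replicate 2 (6) and 20:00 replicate 1 (8). The rhythm change in females (0) gave 0 to 1 both ways, the 1 being the region downstream of Gclc without the control female at 12:00 replicate 3 (adjusted p = 0.0264). The sex difference of the rhythm change (1) gave 2 with gene-table library sizes, 0 without the filter, 4 by limma-voom, 3 by DESeq2 and 3 in the larger table, with 0 to 4 and 0 to 3; 29 libraries moved it. The mean effect in females (1) gave 0 with RLE size factors, 0 with gene-table library sizes and 0 without the filter, with 0 to 0 and 0 to 2; 58 libraries moved it. The sex difference in controls (103) gave 67 without the filter, with 66 to 90 and 92 to 110. The relative rhythm gave 2 to 7 in females (16) and 1 to 9 in males (10) when a replicate number was left out. The cause was not tested, except that leaving out a replicate number removes 24 libraries and that without the filter p-values are adjusted over more regions. Of 628 values for the 46 pairs of a named member and a comparison, 572 kept the call or its absence, 54 lost the call and 2 gained one. Direction was scored only for differences in level, of which 0 reversed. Rhythm comparisons have an amplitude without sign, so a moved peak was not scored there.

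Same-numbered control and misaligned livers of the same sex and clock time did not deviate together (mean r = -0.00559, with 9 of 36 correlations above 0.1). Same-numbered livers of different clock times or sexes were not compared, so whether the numbers mark anything shared there was not tested. With the replicate block 44, 22 and 21 members were rhythmic in control females, control males and misaligned females, 14 changed in males and 107 differed by sex, and no named call changed. Members with means near 20 rest on few reads per liver.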
